A study of Rattus norvegicus with 93 samples.

Results

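Carbonic anhydrase 1 (Car1), transferrin receptor 2 (Tfr2), pleckstrin-2 (Plek2), aquaporin 3 (Aqp3) and the mitochondrial transporter Abcb10 are 5 genes that red cell precursors of the marrow use, and they were followed in the femur marrow of male Sprague-Dawley rats after infusion of topotecan, oxaliplatin or both. They were taken as the probe sets annotated to these single symbols, 1 for each gene, by the highest mean over all 93 arrays. They are 5 of 7810 genes with a single symbol in the table, and 5 of 12532 probe sets tested. Their NCBI Gene identifiers in the platform annotation are 310218 (Car1), 288562 (Tfr2), 314260 (Plek2), 65133 (Aqp3) and 361439 (Abcb10). The genes were chosen by their lower signals at 6 h and 24 h in these arrays and by how those signals depended on the drug, so the differences from vehicle and those between drugs or from the combinations at 6 h and 24 h are given as a description with no test. Differences at 1 h and those between the orders of infusion were tested.

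The study asked how marrow answers each drug and their combination soon after a single dose, with rats killed 1, 6 or 24 h after the last infusion and their RNA hybridised singly. Topotecan (4.7 mg/kg) traps topoisomerase I on DNA. Oxaliplatin (15 mg/kg) puts platinum cross-links into DNA. Every rat was 8 weeks old and received an infusion of 30 min, a pause of 30 min and another infusion of 30 min into a vein. The groups, named in the order of their infusions, were topotecan/oxaliplatin, oxaliplatin/topotecan, D5W/topotecan, topotecan/D5W, NaCl/oxaliplatin, oxaliplatin/NaCl and the vehicle groups NaCl/D5W and D5W/NaCl, where NaCl is saline and D5W is dextrose in water. The vehicle rats compared were those with NaCl and D5W in the matching place, NaCl/D5W for topotecan/D5W, NaCl/oxaliplatin and topotecan/oxaliplatin, and D5W/NaCl for the rest. Each group held 4 rats at each time, except for 3 in topotecan/D5W at 24 h, oxaliplatin/NaCl at 6 h and D5W/NaCl at 24 h. Marrow of the left femur was taken whole, so each array holds RNA of all its cells.

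Red cell precursors divide several times while they build up hemoglobin, then stop dividing, lose the nucleus and leave the marrow as reticulocytes. Erythropoietin keeps them alive through the receptor Epor and the kinase Jak2, and the transcription factors Gata1 and Klf1 switch on their genes. The genes differ in what they do in these cells. Tfr2 senses iron-loaded transferrin and associates with Epor. Plek2 acts downstream of Jak2 and Stat5 and helps to keep cofilin and actin in order. Car1 makes a carbonic anhydrase that is among the most abundant proteins of the red cell. Aqp3 passes water and glycerol through the cell membrane. Abcb10 lies in the inner mitochondrial membrane and supports heme synthesis, in part by stabilising the iron importer Slc25a37.

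The arrays of the 93 rats had medians of 8.79 to 9.30 on the log2 scale, and values across the table ran from 3.94 to 15.40. Of 12 erythroid marker genes 11 were measured, and their mean log2 signal was 10.53 to 11.70 in treated rats at 24 h, against 12.61 to 13.00 in vehicle rats of that time, with no overlap. At 1 h the same mean was 12.52 to 13.09 in treated rats and 12.68 to 12.97 in vehicle rats. Over 10 genes of dividing cells the mean at 6 h was 9.99 to 11.46 in treated rats and 11.61 to 11.78 in vehicle rats. At 24 h the means of 4 of the other marker lists lay higher in treated rats with no overlap, at 11.87 to 12.59 against 11.29 to 11.54 in vehicle rats for 7 neutrophil genes, 11.51 to 12.86 against 10.45 to 11.26 for 8 genes of osteoblasts and stroma, 11.03 to 11.75 against 10.29 to 10.64 for macrophages and 8.37 to 9.27 against 7.40 to 7.75 for T and NK cells. Other lists overlapped between treated and vehicle rats, such as granulocyte precursors (11.89 to 13.08 against 12.10 to 12.50), B cell precursors (10.05 to 11.44 against 10.56 to 11.28) and megakaryocytes and platelets (11.57 to 13.11 against 11.85 to 12.24). The means of 11 skeletal muscle genes stood out in rat 52 of topotecan/oxaliplatin at 6 h (10.38) and in rats 41 and 42 of oxaliplatin/NaCl at 24 h (9.44 and 9.34), against 8.27 or less in all others. The part of these shifts in the results below was not tested. The sample titles carry a plate-like code whose meaning is not given, and at 1 h and 6 h 4 of the 6 treatments (all but topotecan/D5W and oxaliplatin/NaCl) lie in other columns of that code than the vehicle rats. Code and treatment cannot be told apart there, nor for D5W/topotecan and oxaliplatin/topotecan at 24 h. The first number of the code is the same in all rats of 24 h and differs from that of all rats of 1 h and 6 h. That number and the step from 6 h to 24 h cannot be told apart either.

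Without drug Car1 varied least of the 5 genes, and Tfr2 and Aqp3 varied most. Over the 23 vehicle rats the log2 signal was 13.60 to 13.92 for Car1 (median 13.80), 8.31 to 9.54 for Tfr2 (median 9.17), 9.82 to 10.67 for Plek2 (median 10.34), 9.47 to 10.71 for Aqp3 (median 10.34) and 11.31 to 12.21 for Abcb10 (median 11.97). None of 15 comparisons between times of vehicle rats was called by limma (adjusted p under 0.01 and fold above 2), and 1 had an unadjusted p under 0.05, where 0.00532% of all probe sets were called lower and 0.0106% higher. None of 15 comparisons between NaCl/D5W and D5W/NaCl was called either, where 0% of all probe sets were. The 1 with an unadjusted p under 0.05 was Aqp3 at 24 h, which was higher in NaCl/D5W by 0.67 on the log2 scale (adjusted p = 0.610). All 4 rats of NaCl/D5W lay above the 3 of D5W/NaCl in that comparison, so the level of Aqp3 in the vehicle group bears on the 24 h differences given below.

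**Figure D1:**
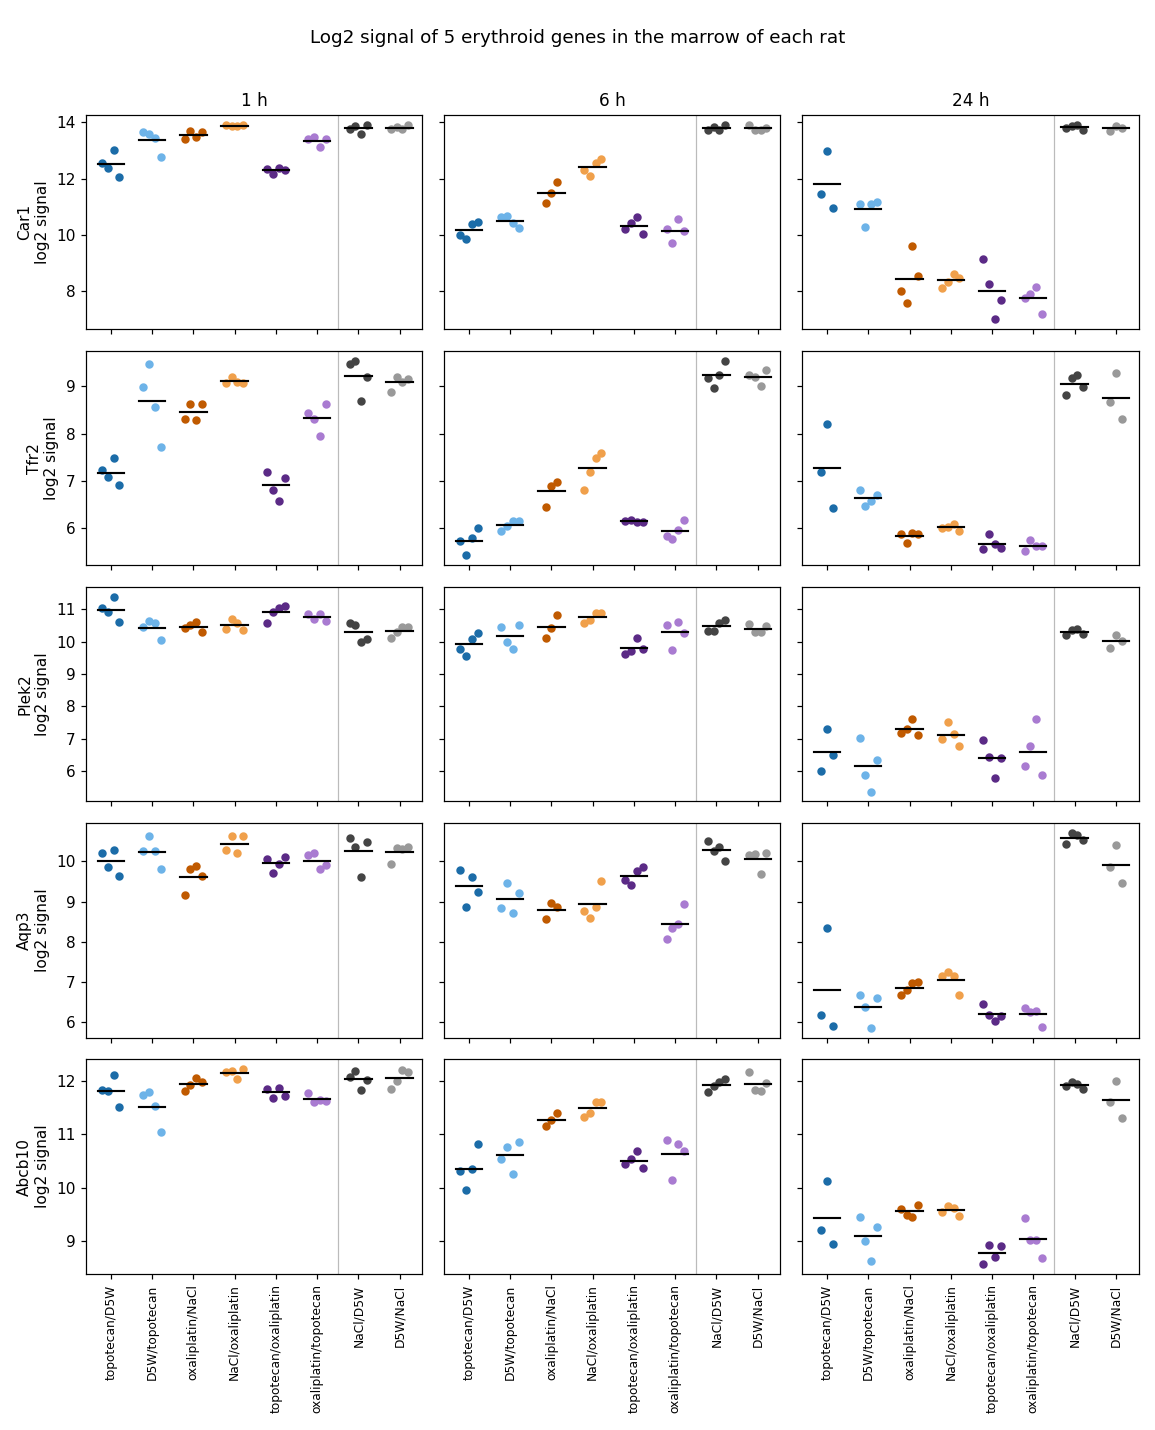
Log2 signal of Car1, Tfr2, Plek2, Aqp3 and Abcb10 (rows) at 1, 6 and 24 h (columns), 1 point per rat, with a line at each group mean and the vehicle groups right of the grey line. Car1 in oxaliplatin and combination groups at 24 h lies between 7.01 and 9.60, while Plek2 at 6 h still lies among vehicle values in most groups.

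By 24 h all 5 genes were far below vehicle in all 6 treatments, and every treated rat lay below every vehicle rat of its comparison in 30 of 30 cases. Such a separation below vehicle was seen in 37.0%, 36.4%, 21.0%, 23.0%, 34.9% and 31.7% of all probe sets for topotecan/oxaliplatin, oxaliplatin/topotecan, D5W/topotecan, topotecan/D5W, NaCl/oxaliplatin and oxaliplatin/NaCl. At 6 h it held in 26 of 30 cases, and all 4 exceptions were of Plek2. The shares of all probe sets at 6 h were 29.5%, 30.1%, 24.3%, 27.5%, 16.4% and 15.7% in the same order. At 1 h it held in 12 of 30 cases, 5 of 6 for Car1, 4 for Tfr2, 2 for Abcb10, 1 for Aqp3 and 0 for Plek2, where 32.9%, 31.0%, 23.5%, 26.4%, 5.37% and 5.57% of all probe sets were separated. The counts at 6 h and 24 h follow from how the genes were picked. In whole marrow, fewer precursor cells and less RNA per cell cannot be told apart.

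The genes reached their 24 h level at different speeds. The difference from vehicle at 6 h, as a share of that at 24 h, had a median over the 6 treatments of 97.8% for Tfr2 (65.0 to 197.2%), 60.0% for Car1 (25.4 to 177.7%), 47.7% for Abcb10 (18.8 to 62.8%), 33.2% for Aqp3 (14.5 to 43.3%) and 4.5% for Plek2 (-8.5 to 17.3%). The median of Tfr2 joins treatments that went opposite ways, from 65.0% in NaCl/oxaliplatin (-1.96 at 6 h and -3.02 at 24 h) to 197.2% in topotecan/D5W (-3.49 and -1.77), while Plek2 had hardly left vehicle at 6 h. Shares above 100% were those of topotecan given alone, for Car1 and Tfr2, and that of Tfr2 in oxaliplatin/topotecan (104.1%, -3.25 and -3.12). These shares are ratios of values from 1 fit and carry no test. Tfr2 has a low signal (percentile 14.4 of all means), with group means of 5.74 to 6.15 at 6 h after topotecan. Whether a floor of the signal limited its later change, and so set its shares, was not tested.

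**Figure D2:**
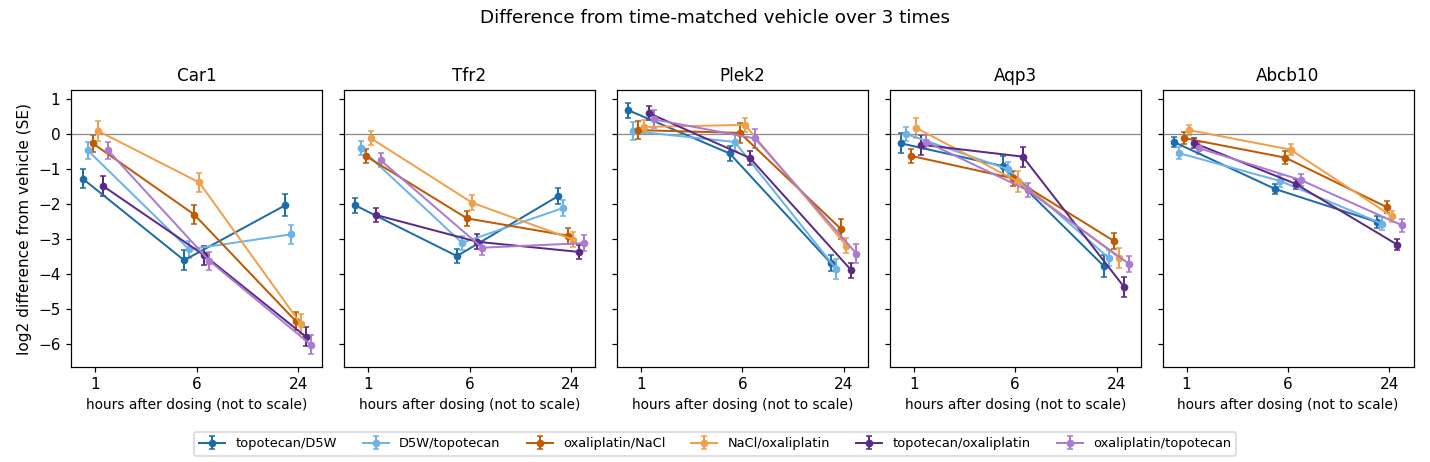
Log2 difference from time-matched vehicle (y axis, bars are SE) at 1, 6 and 24 h (x axis, not to scale), 1 line per treatment and 1 panel per gene. Plek2 stayed between -0.68 and 0.27 at 6 h and lay between -3.90 and -2.72 at 24 h, while Tfr2 lay between -3.49 and -1.96 at 6 h.

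Tfr2, the iron-sensing partner of Epor, had the largest difference of the 5 genes from vehicle at 1 h in both groups given topotecan first. Its log2 signal then was 7.24, 7.08, 7.48 and 6.91 in topotecan/D5W rats and 7.19, 6.81, 6.58 and 7.07 in topotecan/oxaliplatin rats, against 9.46, 9.53, 8.69 and 9.19 in NaCl/D5W rats. Every rat given topotecan first lay more than 1 log2 unit below every rat of its vehicle group. The differences were -2.04 ± 0.21 (SE), a 4.11-fold lower level, and -2.31 ± 0.21, a 4.95-fold lower level, with limma adjusted p = 2.27e-10 and 6.41e-12. Car1 was also called lower in both of these groups at 1 h, by -1.27 ± 0.28 (adjusted p = 3.10e-04) and -1.48 ± 0.28 (adjusted p = 3.20e-05). These are the 4 calls among 30 tests of the 5 genes against vehicle at 1 h, where 3.11% of all probe sets were called lower and 0.878% higher over the 6 treatments together. In topotecan/D5W alone 2.94% were called lower, and in topotecan/oxaliplatin 5.02%.

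The other 26 tests at 1 h were not called. Tfr2 in oxaliplatin/topotecan differed by -0.75 ± 0.20 (adjusted p = 0.00242), less than the fold required. Plek2 in topotecan/D5W was the highest, at 11.05, 10.91, 11.39 and 10.61 in topotecan/D5W rats, against 10.59, 10.53, 9.99 and 10.08 in NaCl/D5W rats. All 4 treated rats lay above the vehicle rats, but the difference of 0.69 ± 0.21 (adjusted p = 0.00681) was under 2-fold. Plek2 in topotecan/oxaliplatin differed by 0.61 ± 0.21 (adjusted p = 0.0140). Aqp3 differed by -0.62 to 0.18 and Abcb10 by -0.54 to 0.12 over the 6 treatments at 1 h, all with an adjusted p above 0.01 on the probe sets used.

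Tfr2 at 1 h differed with the order of infusion. In D5W/topotecan rats, where topotecan came second, Tfr2 was 8.98, 9.46, 8.57 and 7.71, and in oxaliplatin/topotecan rats it was 8.44, 8.31, 7.96 and 8.62, against 8.88, 9.20, 9.08 and 9.16 in D5W/NaCl rats. The D5W/topotecan rats overlapped vehicle, and all 4 topotecan/D5W rats lay below all of them. The difference from vehicle of topotecan first minus topotecan second was -1.64 ± 0.30 (limma adjusted p = 2.27e-05), and that of topotecan/oxaliplatin minus oxaliplatin/topotecan was -1.56 ± 0.30 (adjusted p = 7.38e-05). These were the only 2 calls of 45 tests of order over the 5 genes and 3 times. Over the 9 contrasts of order together 0.101% of all probe sets were called lower and 0.242% higher. The shares in the 2 contrasts that hold the calls are not given here. An unadjusted p under 0.05 was found in 9 of the 45 tests, with no share of all probe sets to set beside it. At 6 h the same differences of Tfr2 were -0.38 ± 0.30 and 0.16 ± 0.30, and at 24 h they were 0.34 ± 0.32 and -0.25 ± 0.31. Since the infusion given first ended earlier, order and time since exposure cannot be told apart. The rats of topotecan/D5W and D5W/topotecan also lay in different columns of the sample code, while the combinations shared their columns at 1 h.

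For Car1 the same contrasts at 1 h were -0.81 ± 0.39 (adjusted p = 0.131) for topotecan alone and -1.01 ± 0.39 (adjusted p = 0.0567) for the combination. When only the samples of that time were fitted, the combination difference of Car1 was called as well (-1.01, limma adjusted p = 0.00245). Aqp3 at 6 h had the largest difference of order in the other direction. It was 9.54, 9.42, 9.77 and 9.86 in topotecan/oxaliplatin rats and 8.07, 8.34, 8.43 and 8.95 in oxaliplatin/topotecan rats. Every rat of topotecan/oxaliplatin lay above those of oxaliplatin/topotecan. The difference between their differences from vehicle, 0.98 ± 0.36, was not called (limma adjusted p = 0.376). For oxaliplatin given alone none of the 15 tests of order was called. The largest differences, first minus second, were those of Car1 at 6 h (-0.92 ± 0.40, adjusted p = 1.00) and Aqp3 at 1 h (-0.81 ± 0.36, adjusted p = 0.571), and Tfr2 differed by -0.51 ± 0.30 at 1 h (adjusted p = 0.712).

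Car1, the red cell carbonic anhydrase, showed the strongest dependence on the drug, and it changed side between 6 h and 24 h. At 6 h its log2 signal was 10.01, 9.87, 10.38 and 10.47 in topotecan/D5W rats and 10.63, 10.68, 10.42 and 10.24 in D5W/topotecan rats, against 11.12, 11.48 and 11.87 in oxaliplatin/NaCl rats and 12.31, 12.09, 12.55 and 12.70 in NaCl/oxaliplatin rats. All 8 rats given topotecan alone lay below all 7 given oxaliplatin alone, as they did for Tfr2 and Abcb10, where 9.89% of all probe sets were separated that way. Topotecan alone minus oxaliplatin alone was -1.61 ± 0.20 at 6 h (95% CI -2.01 to -1.21, no test), a 3.06-fold lower level after topotecan.

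At 24 h the positions were reversed. Car1 was 11.45, 12.98 and 10.97 in topotecan/D5W rats and 11.10, 10.30, 11.09 and 11.17 in D5W/topotecan rats, against 8.01, 7.60, 9.60 and 8.53 in oxaliplatin/NaCl rats and 8.13, 8.33, 8.63 and 8.49 in NaCl/oxaliplatin rats. All 7 rats given topotecan alone lay above all 8 given oxaliplatin alone, in Car1 and in Tfr2, and 9.47% of all probe sets were separated that way. The difference was 2.94 ± 0.20 (95% CI 2.54 to 3.34), a 7.68-fold higher level after topotecan, given with no test since the gene was picked with it known. Without rats 41 and 42 of oxaliplatin/NaCl, the rats of the 24 h groups with high muscle genes, the difference of oxaliplatin/NaCl from vehicle was -4.72 in place of -5.35.

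In both combinations Car1 at 24 h lay near its level after oxaliplatin alone. It was 9.15, 8.27, 7.01 and 7.69 in topotecan/oxaliplatin rats and 7.78, 7.90, 8.16 and 7.21 in oxaliplatin/topotecan rats. The differences from vehicle were -5.80 ± 0.28 and -6.03 ± 0.27, or 55.7-fold and 65.2-fold lower, against -2.03 ± 0.31 for topotecan/D5W, -2.87 ± 0.27 for D5W/topotecan, -5.35 ± 0.27 for oxaliplatin/NaCl and -5.43 ± 0.28 for NaCl/oxaliplatin. In the order of mean levels at 24 h, from oxaliplatin/topotecan up through topotecan/oxaliplatin, NaCl/oxaliplatin and oxaliplatin/NaCl, no step exceeded the within-group SD of 0.40. The steps from there to D5W/topotecan, on to topotecan/D5W and on to D5W/NaCl did, at 2.48, 0.88 and 1.99. Small steps do not show equal levels, as the means ran from 7.76 in oxaliplatin/topotecan to 8.44 in oxaliplatin/NaCl. Set against its single agents, Car1 in topotecan/oxaliplatin was lower than in topotecan/D5W by -3.77 ± 0.31 and differed from NaCl/oxaliplatin by -0.37 ± 0.28. In oxaliplatin/topotecan it was lower than in D5W/topotecan by -3.16 ± 0.25 and than in oxaliplatin/NaCl by -0.68 ± 0.25, or -1.31 without rats 41 and 42.

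Tfr2 showed the same reversal with a smaller span. At 6 h it was 5.43 to 6.01 in topotecan/D5W rats and 5.94 to 6.16 in D5W/topotecan rats, against 6.46 to 6.98 in oxaliplatin/NaCl rats and 6.81 to 7.59 in NaCl/oxaliplatin rats. The rats given topotecan alone all lay below those given oxaliplatin alone, and the difference was -1.12 ± 0.15 (95% CI -1.42 to -0.81, no test). At 24 h Tfr2 was 7.20, 8.20 and 6.44 in topotecan/D5W rats and 6.81, 6.48, 6.58 and 6.71 in D5W/topotecan rats, against 5.89, 5.69, 5.91 and 5.89 in oxaliplatin/NaCl rats and 6.02, 6.04, 6.10 and 5.95 in NaCl/oxaliplatin rats. All 7 topotecan rats now lay above the 8 oxaliplatin rats, by 1.03 ± 0.15 (95% CI 0.72 to 1.33, no test). The combinations were lowest, at 5.56 to 5.88 in topotecan/oxaliplatin rats and 5.53 to 5.75 in oxaliplatin/topotecan rats. From these up to NaCl/oxaliplatin no step between neighbouring means exceeded the within-group SD of 0.30. The means at the ends were 5.64 in oxaliplatin/topotecan and 6.03 in NaCl/oxaliplatin, so small steps do not show equal levels. Whether the low signal of Tfr2 limited the span of its reversal was not tested.

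Plek2, Aqp3 and Abcb10 were not higher after topotecan at 24 h. At 6 h topotecan alone minus oxaliplatin alone was -0.90 ± 0.12 for Abcb10 (1.87-fold lower), -0.54 ± 0.18 for Plek2 and 0.35 ± 0.19 for Aqp3 (95% CI -0.02 to 0.73), with no test. Car1 and Tfr2 were past the thresholds for a lower call in this contrast and no member for a higher one, where 0.575% of all probe sets were past the one and 0.495% past the other, and that count follows from how the genes were picked. At 24 h topotecan alone minus oxaliplatin alone was -0.82 ± 0.18 for Plek2, -0.36 ± 0.19 for Aqp3 and -0.31 ± 0.12 for Abcb10 (no test). At 1 h none of the 5 was called, where 1.14% of all probe sets were called lower and 0.303% higher, while 3 had a limma adjusted p under 0.01, where 38.7% of all probe sets did: Tfr2 by -0.85 ± 0.15 (adjusted p = 1.42e-06), Car1 by -0.78 ± 0.19 (adjusted p = 5.05e-04) and Abcb10 by -0.39 ± 0.12 (adjusted p = 0.00408).

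**Figure D3:**
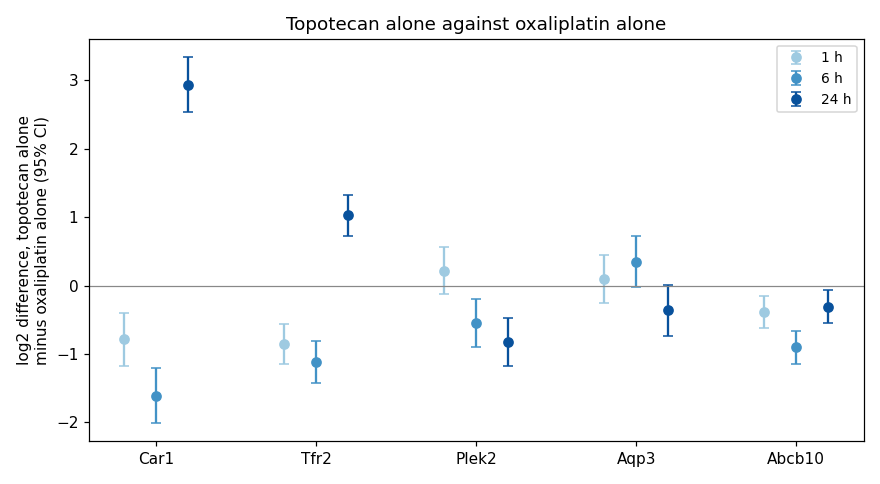
Log2 difference of topotecan alone minus oxaliplatin alone (y axis, bars are 95% CI) for each gene at 1, 6 and 24 h. Car1 goes to -1.61 at 6 h and 2.94 at 24 h, and Tfr2 to -1.12 and 1.03, while Plek2, Aqp3 and Abcb10 lie between -0.82 and -0.31 at 24 h.

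Set against its single agents at 1 h, a combination differed in 2 of 20 tests. Over these 4 contrasts together 1.89% of all probe sets were called lower and 0.367% higher. Both calls set topotecan/oxaliplatin against NaCl/oxaliplatin, and the share in that contrast by itself is not given here. They were Tfr2 at -2.20 ± 0.21 (limma adjusted p = 3.18e-11) and Car1 at -1.57 ± 0.28 (adjusted p = 1.41e-05). None of the 10 comparisons with topotecan given in the same place was called at 1 h. At 6 h the same differences are a description with no test. Topotecan/oxaliplatin minus NaCl/oxaliplatin was -2.09 ± 0.28 for Car1, -1.12 ± 0.21 for Tfr2, -0.98 ± 0.15 for Abcb10, -0.95 ± 0.21 for Plek2 and 0.72 ± 0.29 for Aqp3. Oxaliplatin/topotecan minus oxaliplatin/NaCl was -1.33 ± 0.27 for Car1 and -0.84 ± 0.22 for Tfr2. Against topotecan given in the same place, Car1 at 6 h differed by 0.14 ± 0.28 in topotecan/oxaliplatin (95% CI -0.43 to 0.71) and by -0.33 ± 0.25 in oxaliplatin/topotecan (95% CI -0.84 to 0.18). Of these 20 differences 3 were past the thresholds for a call, where 0.678% of all probe sets were past those for a lower and 0.367% for a higher call, a count that follows from how the genes were picked. Abcb10 and Plek2 were also past them without rat 57 of topotecan/oxaliplatin (-1.04 and -1.05) or rat 75 of NaCl/oxaliplatin (-1.04 and -1.01), which made 5, and Abcb10 without rat 76 of NaCl/oxaliplatin (-1.01), which made 4.

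Plek2, the actin-regulating gene downstream of Jak2, was low late, and under every treatment. At 24 h it was 5.99, 7.30 and 6.50 in topotecan/D5W rats and 6.95, 6.44, 5.79 and 6.40 in topotecan/oxaliplatin rats, against 10.22, 10.36, 10.39 and 10.23 in NaCl/D5W rats. No treated rat came within 2 log2 units of a vehicle rat. It was 7.17, 7.30, 7.62 and 7.10 in oxaliplatin/NaCl rats, against 9.82, 10.21 and 10.03 in D5W/NaCl rats. The means of the 4 groups given topotecan ran from 6.16 to 6.60 in steps smaller than the within-group SD of 0.35, which does not show equal levels. The 2 groups of oxaliplatin alone lay above them at 7.11 and 7.30. The 6 differences from vehicle ran from -3.90 ± 0.21 in topotecan/oxaliplatin (15.0-fold) to -2.72 ± 0.28 in oxaliplatin/NaCl (6.60-fold). At 6 h they had run from -0.68 ± 0.21 to 0.27 ± 0.21, and only topotecan/D5W and topotecan/oxaliplatin had all rats below vehicle.

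Aqp3, the water and glycerol channel, was below vehicle in every group at 6 h and further below by 24 h. At 6 h it was 8.56, 8.97 and 8.86 in oxaliplatin/NaCl rats and 8.07, 8.34, 8.43 and 8.95 in oxaliplatin/topotecan rats, against 10.15, 10.19, 9.69 and 10.20 in D5W/NaCl rats. The groups did not overlap, and the differences were -1.26 ± 0.22 and -1.61 ± 0.20. At 24 h it was 6.45, 6.18, 6.02 and 6.14 in topotecan/oxaliplatin rats, against 10.43, 10.71, 10.65 and 10.53 in NaCl/D5W rats. That was the largest of its differences, -4.38 ± 0.29 or 20.9-fold, and the smallest was -3.06 ± 0.22 or 8.35-fold in oxaliplatin/NaCl. With both vehicle groups pooled, Aqp3 at 24 h was -3.93 in D5W/topotecan, -3.44 in oxaliplatin/NaCl and -4.11 in oxaliplatin/topotecan, in place of -3.55, -3.06 and -3.72. From oxaliplatin/topotecan (6.19) up to NaCl/oxaliplatin (7.04), the only step of the 24 h means above the within-group SD of 0.37 was that between D5W/topotecan and topotecan/D5W, at 0.43. The smaller steps do not show that the groups on either side of it were equal.

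Abcb10, which serves heme synthesis in mitochondria, was also below vehicle in every group at 6 h and further below by 24 h. At 6 h it was 10.31, 9.96, 10.34 and 10.82 in topotecan/D5W rats, against 11.80, 11.91, 11.98 and 12.04 in NaCl/D5W rats, and at 24 h 8.56, 8.92, 8.69 and 8.89 in topotecan/oxaliplatin rats, against 11.91, 11.98, 11.95 and 11.86 in NaCl/D5W rats. Neither pair overlapped. At 6 h the differences were -1.57 ± 0.15, -1.34 ± 0.17, -1.42 ± 0.15 and -1.31 ± 0.17 in the groups given topotecan, and -0.67 ± 0.18 in oxaliplatin/NaCl and -0.44 ± 0.15 in NaCl/oxaliplatin. At 24 h they ran from -3.16 ± 0.15 (8.93-fold) in topotecan/oxaliplatin to -2.09 ± 0.18 (4.27-fold) in oxaliplatin/NaCl. Abcb10 is the only one of the 5 with another probe set in the table, and that one gave smaller differences at 24 h, from -2.49 ± 0.14 to -1.78 ± 0.19, as well as at 6 h, from -1.17 ± 0.14 to -0.24 ± 0.14. Its mean over rats at 24 h was lowest in topotecan/oxaliplatin (8.77) and highest among the treatments in NaCl/oxaliplatin (9.57) on the probe set used.

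One rat stood high in all 5 genes. Rat 35, of topotecan/D5W at 24 h, had 12.98 for Car1, 8.20 for Tfr2, 7.30 for Plek2, 8.33 for Aqp3 and 10.13 for Abcb10, each the highest of its 3 rats. Without it the differences of topotecan/D5W from vehicle at 24 h were -2.62, -2.23, -4.06, -4.54 and -2.86, in place of -2.03, -1.77, -3.70, -3.78 and -2.51. Without it the differences of topotecan/oxaliplatin from topotecan/D5W at 24 h also turned positive for Plek2 (0.15 in place of -0.20) and Aqp3 (0.16 in place of -0.61). For Car1 that difference kept its sign, at -3.18 in place of -3.77.

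Rats of 1 group that were high in 1 of these genes tended to be high in the others. Over the deviations of 93 rats from their group means, Pearson's r of the 10 pairs of genes was 0.40 to 0.68 and Spearman's rho 0.44 to 0.61. The permutation p (two-sided, rats shuffled within groups, 100000 permutations, adjusted over the 10 pairs) was 2.00e-05 to 5.20e-04 for r and 1.67e-05 to 4.00e-04 for rho. Without the 2 rats farthest from the median r was 0.32 to 0.63. Within the 2 sets of animal numbers it was 0.34 to 0.62 and 0.40 to 0.76. The largest were Tfr2 with Aqp3 and Tfr2 with Abcb10 at 0.68 each, and Tfr2 with Plek2 gave 0.40. The smallest p that these permutations can give before adjustment is 1.00e-05. Correlations of this kind were not computed for other pairs of genes. Whether these 10 pairs differ from pairs of other genes in the same rats was therefore not tested.

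The likeness of the genes across the 18 differences from vehicle is given as a description, since the differences share vehicle groups. Plek2 correlated with Aqp3 at 0.955 and with Abcb10 at 0.941, and Aqp3 with Abcb10 at 0.928. Car1 correlated with Tfr2 (0.858) about as closely as with Abcb10 (0.845), followed by Aqp3 (0.764) and Plek2 (0.710), and Tfr2 was only the 476th gene in closeness to Car1. Tfr2 and Plek2 stood at 0.402. Among 7809 other genes the 5 nearest to Plek2 were Ypel4 (0.994), the heme enzyme Urod (0.993), Ubac1, Fam210b and the blood group gene Kel. Those nearest to Aqp3 were Cox11 (0.980), Mtfr1, the erythroid factor Klf1 (0.969), Cep76 and Ackr1. Those nearest to Abcb10 were the heme enzyme Cpox (0.985), Pigq, the skeleton gene Dmtn (0.984), the heme enzyme Alad (0.984) and Larp1b. Those nearest to Tfr2 were Bex4 (0.978), Sod1, Ssrp1 and the replication helicase genes Mcm6 (0.971) and Mcm2 (0.971), and those nearest to Car1 were Prpf4 (0.979), the replication licensing inhibitor Gmnn (0.976), the nuclease Exo1 (0.972), Rps15a and Scoc. A high correlation does not mean an equal size, as Prpf4 had differences of -0.60 to 0.09, whereas Bex4 had -4.73 to 0.18.

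The stretches upstream of the genes are shown because Plek2, Aqp3 and Abcb10 had similar time courses and Klf1, which binds CACCC boxes, is among the genes nearest to Aqp3. RefSeq (build GRCr8) gave a start for 4 of the 5 genes, all on the minus strand, and Car1 had none in the table used. Each line holds the 250 bases before the start, read 5′ to 3′ along the gene, with CACCC or its reverse complement GGGTG in capitals.
Tfr2 (chr12:24761369-24761618): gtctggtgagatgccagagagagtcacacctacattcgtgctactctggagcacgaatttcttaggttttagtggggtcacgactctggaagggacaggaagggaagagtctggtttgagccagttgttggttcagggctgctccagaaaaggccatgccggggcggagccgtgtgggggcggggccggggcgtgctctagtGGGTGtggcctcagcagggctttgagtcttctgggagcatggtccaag
Plek2 (chr6:103452372-103452621): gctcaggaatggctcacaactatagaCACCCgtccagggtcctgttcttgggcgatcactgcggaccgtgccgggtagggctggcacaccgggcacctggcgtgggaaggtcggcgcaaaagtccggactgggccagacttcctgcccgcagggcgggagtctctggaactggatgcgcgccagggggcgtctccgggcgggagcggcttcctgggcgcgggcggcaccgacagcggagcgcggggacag
Aqp3 (chr5:61040684-61040933): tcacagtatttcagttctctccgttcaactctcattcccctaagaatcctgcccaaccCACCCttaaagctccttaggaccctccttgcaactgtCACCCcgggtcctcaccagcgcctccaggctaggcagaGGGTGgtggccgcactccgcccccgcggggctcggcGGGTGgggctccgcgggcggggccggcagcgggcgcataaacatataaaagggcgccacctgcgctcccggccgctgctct
Abcb10 (chr19:68880204-68880453): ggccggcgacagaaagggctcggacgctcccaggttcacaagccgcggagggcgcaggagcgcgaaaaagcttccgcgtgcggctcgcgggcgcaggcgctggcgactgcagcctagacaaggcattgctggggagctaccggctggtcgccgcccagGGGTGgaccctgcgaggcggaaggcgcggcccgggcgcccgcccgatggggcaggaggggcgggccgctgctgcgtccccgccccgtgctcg
Aqp3 held 4 such matches and Tfr2, Plek2 and Abcb10 held 1 each. The match nearest to the start lay 48 bases before it in Tfr2, 81 in Aqp3, 92 in Abcb10 and 224 in Plek2. CACCC was found on either strand in 49.2% of 33469 rat promoters of the same length, so a match is common. The GATA-type AGATAA (10.3% of promoters) and TGATAA (8.0%) and the Stat-type TTCNNNGAA (7.7%) had no match on either strand in the 4 stretches.

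The other genes of the same pathways were counted from lists of heme, iron, membrane and other erythroid genes, with a call at an adjusted p under 0.01 and a fold above 2 by limma. At 24 h 8.02%, 8.55%, 4.91%, 4.52%, 5.23% and 4.68% of all probe sets were called lower in topotecan/oxaliplatin, oxaliplatin/topotecan, D5W/topotecan, topotecan/D5W, NaCl/oxaliplatin and oxaliplatin/NaCl, and 9.81%, 8.04%, 4.92%, 2.84%, 4.80% and 4.66% higher. Of 12 measured genes of heme synthesis and mitochondrial transport, the pathway of Abcb10, 8, 7, 6, 7, 5 and 5 were called lower in that order and 0 higher. Uros (-3.68 to -2.93 on the log2 scale), Cpox (-3.52 to -2.56), Alad (-2.91 to -2.42), Urod (-2.15 to -1.74) and Ppox (-2.06 to -1.77) fell in all 6. They are the enzymes of middle steps of heme synthesis. Alas2, which starts it in red cells, lay 0.02 to 0.43 above vehicle at 24 h and was not called, and Fech, which ends it, was -0.72 to -0.23 and not called.

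At 6 h 4.16%, 4.68%, 2.68%, 3.37%, 0.375% and 0.583% of all probe sets were called lower in that order and 3.60%, 3.78%, 3.03%, 2.74%, 0.790% and 0.822% higher. Of the 12 heme genes 6, 4, 4, 5, 1 and 1 were called lower and 0 higher. Uros was lower in all 6 (-2.76 to -1.16). Alad, Cpox and Tmem14c were lower in the 4 groups given topotecan and in neither oxaliplatin group. Of 13 genes of iron uptake and storage, the same 4 were called lower in each treatment at 24 h: the transferrin receptor Tfrc (-2.56 to -1.49), the iron reductase Steap3 (-1.81 to -1.43), the iron transporter Slc11a2 (-2.18 to -2.0) and Slc25a37, the importer that Abcb10 stabilises (-2.44 to -1.28). At 6 h Steap3 was called lower in 5 of the 6 treatments (-1.81 to -0.65) and Slc11a2 in 4 (-1.21 to -0.56). No other of the 13 was called at 6 h, and Slc25a37 lay at -0.64 to -0.01. At 24 h Aco1 was called higher in NaCl/oxaliplatin (1.01) and Bmp6 in topotecan/oxaliplatin (1.13).

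Among 12 genes of erythropoietin receptor signalling Epor alone was called lower at 24 h, in all 6 treatments (-1.61 to -1.18), and at 6 h in the 4 given topotecan (-1.54 to -1.28), with -0.59 in oxaliplatin/NaCl and -0.61 in NaCl/oxaliplatin. Jak2 was -0.24 to 0.11 and Stat5b -0.24 to -0.07 at 24 h, neither called. Osm was called higher in oxaliplatin/topotecan at 6 h (1.01), where 3.78% of all probe sets were. Socs3, an inhibitor of Jak kinases, was called higher in topotecan/oxaliplatin at 1 h (1.11). Over the 6 treatments at 1 h 0.878% of all probe sets were called higher. The kinase Lyn was called lower at 1 h in oxaliplatin/topotecan (-1.45) and D5W/topotecan (-1.10), where 6.43% and 4.19% were. These calls, like those of Epor, are of single genes among the 12 and do not show a response of the whole list. Tfr2, which associates with Epor, had larger differences from vehicle than Epor in every treatment, at -3.49 to -1.96 at 6 h and -3.37 to -1.77 at 24 h. Tfr2 was picked by its lower signals at these times, so that comparison carries no test. Of 9 cofilin and actin genes linked to the function of Plek2, none was called lower at 24 h and Cfl2 was called higher in topotecan/oxaliplatin (1.15).

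Of 16 erythroid transcription factors 8, 6, 6, 9, 6 and 3 were called lower at 24 h in the order above. Sox6 (-4.49 to -2.89), Klf1 (-2.97 to -1.99) and E2f4 (-1.58 to -1.0) were called in all 6, and Gata1 in 5, with -0.94 in oxaliplatin/NaCl. Sox6, which acts in red cell maturation, was also called lower at 1 h in the 4 groups given topotecan (-2.69 to -1.62), with -0.56 in oxaliplatin/NaCl and -0.01 in NaCl/oxaliplatin, where 5.02%, 6.43%, 4.19%, 2.94%, 0% and 0.0798% of all probe sets were called lower in the same order. At 6 h Sox6 was -0.88 to -0.04 and not called in any of the 6. Bcl11a was also called lower at 1 h, in 4 of the 6 treatments (-3.03 to -0.35 over all 6). Myb (-1.47 to -0.16) and Zfpm1 (-1.05 to -0.17) were called lower at 1 h in 2 treatments each. The rest of the 16 factors were not called at 1 h. Klf1 was -0.17 to 0.10 at 1 h.

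Of 15 genes of the red cell membrane and skeleton 11, 10, 11, 11, 8 and 8 were called lower at 24 h, and their median difference was -2.11 to -1.10 over the 6 treatments, where the median of all probe sets was -0.11 to 0.03. Rhag (-3.77 to -2.49), Ank1 (-3.60 to -2.05), Dmtn (-3.33 to -2.44) and Epb42 (-3.0 to -1.68) were lower in all 6. The anion exchanger Slc4a1 was called in the 4 groups given topotecan (-2.55 to -1.54) and not in oxaliplatin/NaCl (-0.99) or NaCl/oxaliplatin (-0.80). Epb41 was called only in D5W/topotecan and topotecan/D5W (-1.27 each) and lay at -0.73 to -0.34 in the other 4 groups. At 6 h 2, 2, 1, 1, 0 and 0 of the 15 were called lower, Dmtn in each of the 4 groups given topotecan (-1.65 to -1.05).

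Calls of the 6 other carbonic anhydrases and both other aquaporins are given gene by gene, and Car5b and Car11 had none. The share of all probe sets called in any of the 18 comparisons with vehicle was not computed. These calls therefore do not show a response of either family. Car2, the other main form in red cells, was called lower at 24 h in D5W/topotecan (-1.20) and topotecan/oxaliplatin (-1.0) and lay at -0.99 to -0.56 in the other 4. Car3, an enzyme of muscle and fat, was called higher at 24 h in all 6 (2.12 to 3.28), while 11 muscle genes averaged 5.95 to 9.44 in treated rats and 5.97 to 6.09 in vehicle rats of that time. At 6 h Car4 was called higher in oxaliplatin/topotecan (2.02) and Car8 in oxaliplatin/topotecan (1.27) and D5W/topotecan (1.09). Among the aquaporins Aqp1 was called lower at 24 h in 5 treatments (-2.37 to -1.07) and not in oxaliplatin/NaCl (-0.96), and Aqp9 higher in NaCl/oxaliplatin (1.07), topotecan/oxaliplatin (1.57) and oxaliplatin/topotecan (1.26), and at 6 h in topotecan/oxaliplatin (1.01). Among the globin genes measured, Hbb stayed within 0.03 of vehicle at 24 h, with signals of 14.67 to 15.35 that lie at the top of the table's range, the globin chaperone Ahsp was called lower in all 6 (-2.28 to -1.13), and the embryonic globin Hbe1 was called higher at 6 h in the 4 groups given topotecan (1.16 to 2.15).

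**Figure D4:**
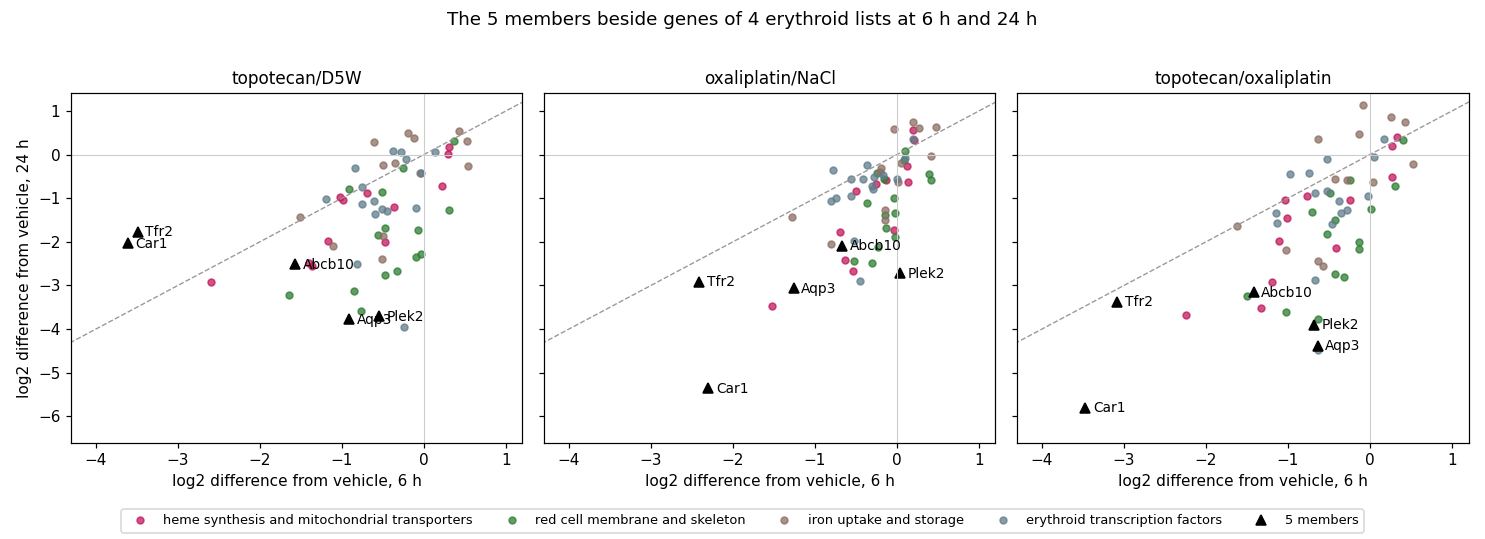
Log2 difference from vehicle at 6 h (x axis) and 24 h (y axis) in topotecan/D5W, oxaliplatin/NaCl and topotecan/oxaliplatin, for the 5 genes (triangles) and the genes of 4 erythroid lists (points), with a dashed line where both are equal. Tfr2 at -3.49, -2.41 and -3.08 at 6 h lies left of every listed gene. Car1 lies further left still in topotecan/D5W (-3.61) and topotecan/oxaliplatin (-3.47). At 24 h Car1 at -5.35 and -5.80 lies below every listed gene in oxaliplatin/NaCl and topotecan/oxaliplatin, but not in topotecan/D5W. The 5 genes were picked by their lower signals at these times, so these positions follow from that choice.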

How the data were processed

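Femur marrow RNA of 93 rats was hybridised to Affymetrix whole-genome rat arrays, 1 per rat. The deposited log2 values were made by the authors with RMA (background correction, quantile normalization, median polish), and the authors kept the probe sets whose probes vary together (pvac filter), 12560 in all. They left out 1 array as an outlier, and RNA of 2 rats failed their quality limit. The genome build is not given in the sources used here. Here 28 control probe sets were removed, and 12532 were tested. Symbols came from the platform annotation: 10002 probe sets have 1, 292 several and 2238 none. Arrays have no depth, so the number of rats sets the precision, and RMA pulls low signals together.

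Group means were fitted by limma (version 3.58.1, with R version 4.3.3), separately for the groups of each vehicle, as in the study's methods. Contrasts of order, of drugs and of vehicles used all groups in 1 fit. Benjamini-Hochberg adjustment ran over all probe sets of a contrast, and calls needed adjusted p under 0.01 and a fold above 2. P-values rest on the spread between rats. The fits were tested on simulated arrays. The genes named are the 5 members, genes of the pathway and marker lists, and the 5 genes most correlated with each member over the 18 differences. Members and lists were chosen with earlier results of these data known. Drug and combination contrasts of the members at 6 h had been set out as tests and are given without one, since their choice used these values. Alternatives changed the normalization, probe set, samples, variance prior, filter, vehicle, animal set, threshold and rats.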

Additional observations from a re-analysis of the deposited data

Results flagged for a closer look

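In 4 of 105 sets of values, each of 1 gene in 1 group of 4 rats, 1 rat stood far from the other 3, where chance alone gives about 1 in 20. The same rats enter once for each gene, so the sets are not independent. Car1 was 10.30 in rat 90 of D5W/topotecan at 24 h and 11.09 to 11.17 in the others. Tfr2 was 5.69 in rat 42 of oxaliplatin/NaCl at 24 h, 1 of the rats with high muscle genes, and 5.89 to 5.91 in the others. Aqp3 was 9.94 in rat 13 of D5W/NaCl at 1 h and 10.31 to 10.37 in the others, and 9.69 in rat 21 of D5W/NaCl at 6 h and 10.15 to 10.20 in the others.

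The change of Tfr2 from vehicle at 1 h differed between the orders of infusion, by a test of the difference itself in limma. Topotecan first minus second was -1.64 (adjusted p = 2.27e-05), and topotecan/oxaliplatin minus oxaliplatin/topotecan was -1.56 (adjusted p = 7.38e-05).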

How the results depend on the processing

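No called value of a member changed direction under any alternative. Counts at 6 h are of members past the thresholds, with no test since the genes were picked on those values. Untested differences changed sign for Plek2 and Aqp3 at 24 h between topotecan/oxaliplatin and topotecan/D5W (0.15 and 0.16 without rat 35), and for values near 0: Plek2 at 6 h in oxaliplatin/NaCl (0.04, without rat 46) and oxaliplatin/topotecan (-0.12, without rat 64), and Abcb10 at 24 h between oxaliplatin/topotecan and D5W/topotecan (-0.05, with a second quantile normalization or without any of 3 rats). Keeping only probe sets above the 25th percentile of means leaves out Tfr2, which lies at 14.4, and gives 2 calls against vehicle at 1 h in place of 4, 1 in place of 2 for the drugs at 6 h, 1 in place of 2 for the combinations at 1 h and 0 in place of 2 for order. Without a minimum fold there were 3 in place of 0 calls for the drugs at 1 h, 7 in place of 3 for the combinations at 6 h, and 508 in place of 241 lower calls over the pathway lists. Leaving out each rat in turn gave 4 to 4 calls against vehicle at 1 h, 0 to 0 and 2 to 2 for the drugs at 1 h and 6 h, 2 to 2 and 3 to 5 for the combinations, 2 to 2 for order and 0 to 0 among vehicles. The Car1 difference of order between the combinations at 1 h was called when only samples of that time were fitted (-1.01, adjusted p = 0.00245). The 2 alternatives chosen after seeing the data left out the 3 arrays high in muscle genes and used the other Abcb10 probe set. A fit of vehicle times to samples of a single time was not run, since it holds 1 time. No paired analysis was possible because each rat has its own animal number. Other causes of these changes were not tested.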
